A study of Mus musculus with 7 samples.

Results

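The unfolded protein response and the integrated stress response were followed here through 10 genes, namely the ER stress sensors Ern1, Eif2ak3 and Atf6, the transcription factors Xbp1, Atf4 and Ddit3, the ER chaperones Hspa5 and Hsp90b1, and the ATF4 targets Trib3 and Asns. They were taken by symbol from the 57010 gene identifiers of the count table, and all 10 were among the 17039 genes that passed the filter on low counts and were tested. The rule goes by symbol and uses no expression value, but the list was drawn up with earlier results of these data known. The libraries came from mature white adipocytes of male mice, freed by collagenase from the perigonadal fat pad at 20 weeks of age on standard chow (Teklad LM-485). The comparison asked how loss of FFA2, a receptor for short-chain fatty acids encoded by Ffar2, affects adipocyte transcripts without a dietary challenge. Control libraries FL1 to FL3 came from 3 FFA2 fl/fl littermates, which are labelled with the floxed alleles alone, and libraries KO1 to KO4 from 4 Adipoq-F2-KO mice, which carry the floxed alleles and Cre under the adiponectin promoter. This promoter is active in adipocytes, so other cell types of the pad keep the receptor. Each library is treated as 1 mouse, and no extraction or sequencing batch is labelled.

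Secretory cells fold their exported proteins in the endoplasmic reticulum (ER), and adipocytes secrete large amounts of adiponectin, leptin and complement factors. When unfolded proteins build up, 3 sensors of the ER membrane respond. IRE1 (Ern1) splices the Xbp1 transcript into its active form, ATF6 is cut in the Golgi to free a transcription factor, and PERK (Eif2ak3) phosphorylates the initiation factor eIF2 alpha. The last step lowers general translation and favours translation of Atf4. It is shared with kinases that sense amino acid shortage, heme shortage and viral RNA, and that shared branch is called the integrated stress response. XBP1 and ATF6 raise chaperone genes, whereas ATF4 raises genes of amino acid supply and, with CHOP (Ddit3), Trib3. Counts per gene see transcript levels only, not the splicing of Xbp1, the cleavage of ATF6, phosphorylation or translation.

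ATF6, XBP1 and ATF4 are known to act through short promoter sequences, and of the promoters searched, those with a match before the start are shown. RefSeq (GRCm38.p6) listed a promoter, from 250 bases before to 50 bases after the start, for 9 of the 10 genes, with none for Atf6. Each was searched on both strands for the ER stress response element (CCAAT, 9 bases, CCACG), for TGACGTGG, for TGATGNAA, the core of the element bound by ATF4 with a C/EBP partner, and for TTGCATCA, which is the reverse complement of 1 form of the previous motif and so overlaps it. The ER stress response element stood in the promoters of Hspa5 and Hsp90b1 and in 0.119% of all 32851 promoters. The capitals mark it in the 250 bases before the start of Hspa5 (chr2:34771840-34772089, plus strand) and of Hsp90b1 (chr10:86705445-86705694, minus strand).
Hspa5: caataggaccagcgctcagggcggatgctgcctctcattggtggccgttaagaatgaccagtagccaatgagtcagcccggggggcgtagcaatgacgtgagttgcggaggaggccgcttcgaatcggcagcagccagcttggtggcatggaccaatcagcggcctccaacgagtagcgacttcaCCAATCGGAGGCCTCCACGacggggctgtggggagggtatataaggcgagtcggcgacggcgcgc
Hsp90b1: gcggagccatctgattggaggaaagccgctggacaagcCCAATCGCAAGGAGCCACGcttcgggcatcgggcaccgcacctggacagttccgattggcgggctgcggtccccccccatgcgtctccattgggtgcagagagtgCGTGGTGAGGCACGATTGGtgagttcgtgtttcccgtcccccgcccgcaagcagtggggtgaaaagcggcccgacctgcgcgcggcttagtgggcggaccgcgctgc
The match lay 65 to 47 bases before the start in Hspa5. Hsp90b1 held 2 matches, 212 to 194 bases before the start in the sense direction and 107 to 89 bases before it in the other direction.

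TGATGNAA stood in 3.97% of all promoters, among them those of Asns and Trib3, where the match in Trib3 came after the start. It also stood in the promoter of the cystine transporter Slc7a11, described further on with Slc7a1 and Slc38a2. The 2 promoters listed for Slc7a1, the 1 listed for Slc38a2 and those of Xbp1, Ern1, Eif2ak3, Atf4 and Ddit3 held none of the motifs in this window. The capitals mark the motif in the 100 bases before the start of Asns (chr6:7693210-7693309, minus strand), at 23 to 16 bases before it, and of Slc7a11 (chr3:50443614-50443713, minus strand), at 66 to 59 and 47 to 40 bases before it.
Asns: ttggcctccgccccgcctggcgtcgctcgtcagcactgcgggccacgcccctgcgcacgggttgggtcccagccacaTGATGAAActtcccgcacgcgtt
Slc7a11: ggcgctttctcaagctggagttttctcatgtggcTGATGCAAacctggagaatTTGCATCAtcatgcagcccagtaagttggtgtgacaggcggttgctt
TTGCATCA stood in 0.895% of promoters and matched the same places in Slc7a11. TGACGTGG stood in 0.676% of promoters and in none of those listed for the 10 genes. A match describes the letters of the window and no binding.

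Total counts per library were 30478997 to 39992605, and 0 counts then allow up to 0.150 to 0.197 CPM (counts scaled to a common library total), by counting error only. Ffar2 itself fell from 34.5 ± 2.77 to 1.69 ± 0.634 normalized CPM (SD, n = 3 and 4), a log2 fold change of -4.36, as the labels say. Across all tested genes, edgeR's quasi-likelihood test called 173 (1.02%) at an adjusted p under 0.05, of which 136 (0.798%) were higher and 37 (0.217%) lower in Adipoq-F2-KO. The share of counts from mitochondrial genes was 4.41%, 5.77% and 4.98% in FL1 to FL3 and 7.82%, 6.61%, 9.24% and 10.3% in KO1 to KO4, so every KO library lay above every control. KO4 had the largest mitochondrial share and the lowest total count, 30478997. Its most counted gene, ENSMUSG00000119584, took 6.76% of its counts, against 0.619% (FL3) to 3.75% (KO2) in the other libraries. KO4 was the highest library for 25.1% of tested genes and the lowest for 24.3%.

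None of the 10 genes was called. The count was 0 by edgeR, by DESeq2 (background 4.57% of 18999 genes) and by limma voom (background 1.22%). At an unadjusted p under 0.05 edgeR gave 1 of the 10 (Atf4), against 17.9% of all tested genes, DESeq2 gave 3 (Hspa5, Ern1 and Atf4) and limma voom 2 (Hspa5 and Atf4). The 17.9% is the share by edgeR alone. No such share is given for DESeq2 or limma voom, so their counts of 3 and 2 have no background here. In 2 genes, Ern1 and Atf4, all KO libraries lay above all FL libraries, against 8.86% of tested genes, and in 0 genes all lay below, against 8.72%. The log2 fold change was positive in 7 and negative in 3, with a median of 0.04 beside 0.0037 over all tested genes. For 7 of the 10 the 95% interval stayed within 0.5 log2 units of 0, which bounds the size of a difference these libraries can hold.

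**Figure D1:**
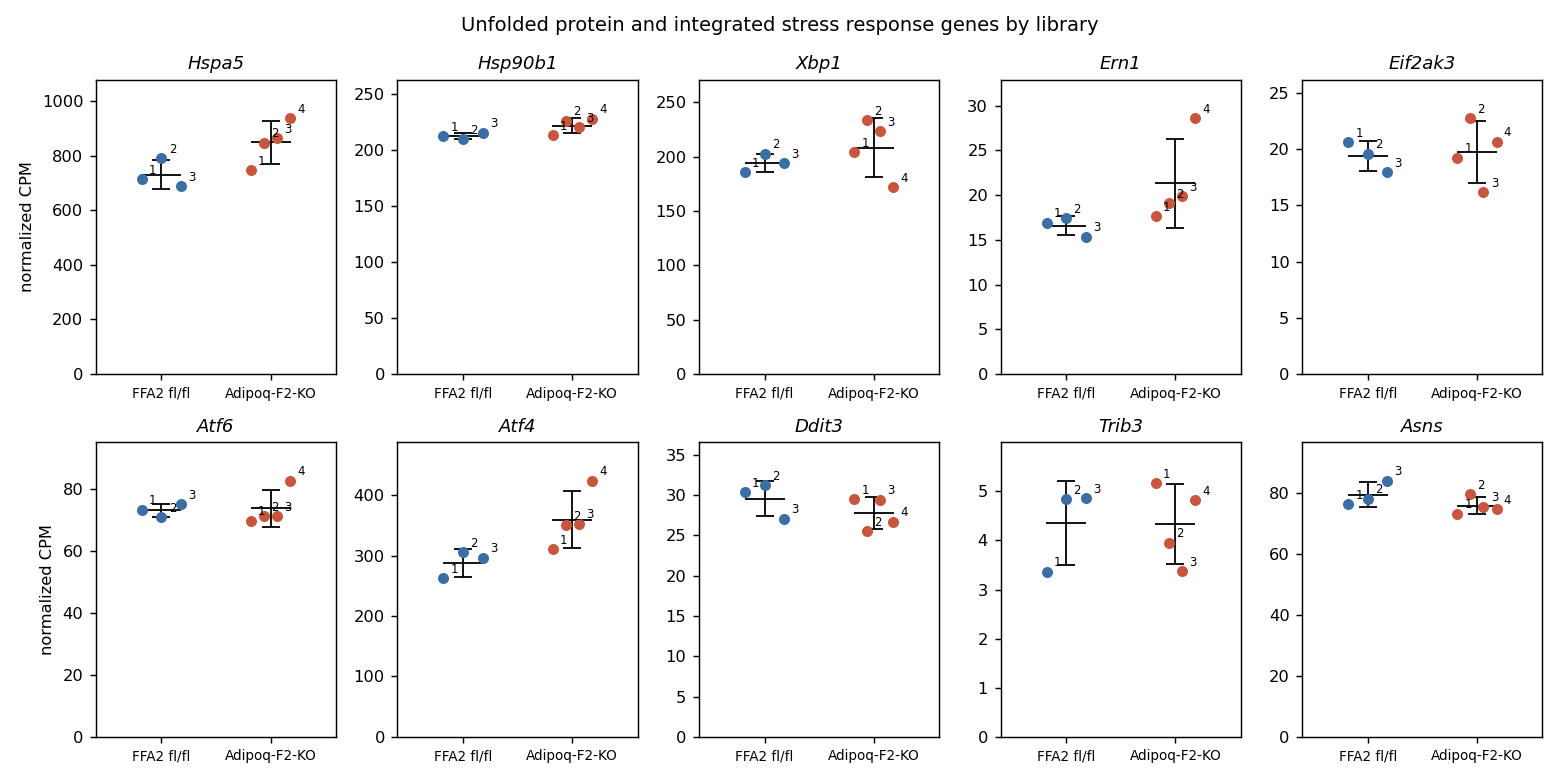
Normalized CPM (linear axis from 0) of the 10 genes in each library, with FFA2 fl/fl in blue, Adipoq-F2-KO in red, mouse numbers beside the points, and bars for mean ± SD (n = 3 and 4). The groups are apart in Ern1 and Atf4 alone, and KO4 is the highest library for 5 of the 10 genes.

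Levels of different genes were compared as normalized CPM per kilobase of summed exon length. Hspa5 was the highest of the 10 at 189, above 99.0% of tested genes, and Atf4 followed at 140. Xbp1 stood at 62.3, Hsp90b1 at 54.0, Asns at 28.3, Ddit3 at 16.7 and Atf6 at 7.97. The 3 lowest were Eif2ak3 at 3.25, Ern1 at 2.36 and Trib3 at 2.04. Over libraries, the ranges of neighbours overlapped for Hspa5 (163 to 222) and Atf4 (111 to 180), for Xbp1 (52.9 to 72.0) and Hsp90b1 (52.0 to 56.5), and for Ern1 (1.88 to 3.50) with both Eif2ak3 (2.68 to 3.78) and Trib3 (1.58 to 2.43). The factors and chaperones were thus recorded at higher levels per length than the sensors in these adipocyte libraries.

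Hspa5 encodes BiP, the HSP70 chaperone of the ER that also holds the sensors inactive (ENSMUSG00000026864, chromosome 2, 34661982 to 34667559, plus strand, as the count table places it). Its normalized CPM were 713.7, 789.5 and 688.1 in FL1 to FL3 and 745.7, 846.7, 863.6 and 936.8 in KO1 to KO4. KO1 lay within the control range and the other KO libraries above it. The means were 730 ± 52.7 and 848 ± 78.7, a log2 fold change of 0.22 (SE 0.10, 1.16-fold, 95% interval 0.995 to 1.36). The adjusted p was 0.296 by edgeR's quasi-likelihood test, and the exact two-sided permutation p over libraries was 0.0857.

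Hsp90b1, or GRP94, is the HSP90 chaperone of the ER (ENSMUSG00000020048, chromosome 10, 86526073 to 86541373, minus strand). It measured 212.4, 209.6 and 215.6 normalized CPM in the FL libraries and 213.3, 226.1, 220.4 and 228.0 in the KO libraries. KO1 lay among the controls, and the whole spread over mice was small. The log2 fold change was 0.06 (SE 0.08, 95% interval -0.11 to 0.23, edgeR adjusted p = 0.721). So Hsp90b1, which holds the same promoter element as Hspa5, had a smaller estimate, with intervals that overlap, and the difference between both genes was not tested.

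Among the sensors, Ern1 (IRE1 alpha, the kinase and endoribonuclease that splices Xbp1) lies on chromosome 11 at 106285476 to 106378678, minus strand (ENSMUSG00000020715). Its normalized CPM were 16.93, 17.39 and 15.35 in FL and 17.61, 19.11, 19.86 and 28.59 in KO. The groups did not overlap, with KO1 just above FL2 and KO4 far above the other KO libraries. The log2 fold change was 0.36 (SE 0.16, 1.28-fold, edgeR adjusted p = 0.280, exact permutation p = 0.0857). Without KO4 it was 0.19, with an adjusted p of 0.485 by edgeR.

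Eif2ak3 (PERK, ENSMUSG00000031668, chromosome 6, 70821499 to 70882229, plus strand) measured 20.59, 19.58 and 17.96 in FL and 19.24, 22.75, 16.18 and 20.66 in KO. The highest and the lowest library were both KO. Atf6 (ENSMUSG00000026663, chromosome 1, 170532243 to 170695340, minus strand), the sensor that becomes a transcription factor, measured 73.49, 70.99 and 75.19 in FL and 69.92, 71.44, 71.38 and 82.79 in KO. Only KO4 stood outside the control range on the high side. Log2 fold changes were 0.02 (SE 0.13, 95% interval -0.27 to 0.31) for Eif2ak3 and 0.01 (SE 0.09, 95% interval -0.19 to 0.21) for Atf6. Both signs turned negative when single libraries were left out.

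Xbp1, the factor whose transcript IRE1 splices (ENSMUSG00000020484, chromosome 11, 5470659 to 5475893, plus strand), measured 185.7, 202.7 and 193.9 in FL and 204.4, 233.9, 223.3 and 171.9 in KO. KO1 to KO3 lay above every control and KO4 below every control. The log2 fold change was 0.10 (SE 0.11, 95% interval -0.14 to 0.34, edgeR adjusted p = 0.672). Without KO4 it was 0.18, with an adjusted p of 0.341 by edgeR.

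Atf4, the factor at the centre of the integrated stress response (ENSMUSG00000042406, chromosome 15, 80139385 to 80141742, plus strand), came nearest to a call. Its normalized CPM were 262.8, 306.4 and 296.8 in FL and 311.0, 350.7, 353.5 and 424.3 in KO. All KO libraries lay above all controls, KO1 by a small margin over FL2. The means were 289 ± 22.9 and 360 ± 47.1, a log2 fold change of 0.32 (SE 0.11, 1.25-fold, 95% interval 1.05 to 1.48). The edgeR p was 0.0170 unadjusted and 0.181 adjusted, the adjusted p of DESeq2 was 0.0879 and that of limma voom 0.173. The exact permutation p was 0.0571, where the smallest that 3 against 4 libraries can give is 0.0286. With single libraries left out the log2 fold change stayed between 0.23 and 0.38.

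**Figure D2:**
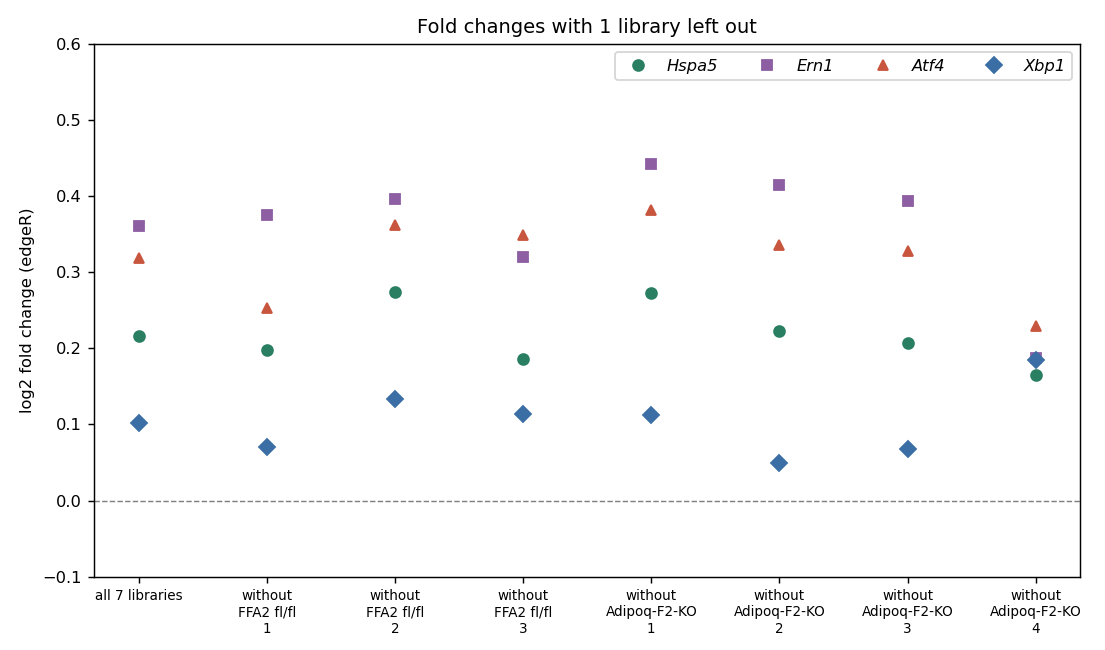
Log2 fold change (Adipoq-F2-KO over FFA2 fl/fl, edgeR) of Hspa5, Ern1, Atf4 and Xbp1 with all 7 libraries and with each library left out. All values stay above 0, and leaving out KO4 brings Ern1 from 0.36 to 0.19 and Xbp1 from 0.10 to 0.18.

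Ddit3 (CHOP, the pro-apoptotic partner of C/EBP factors, ENSMUSG00000025408, chromosome 10, 127126643 to 127132157, plus strand) measured 30.39, 31.27 and 27.09 in FL and 29.53, 25.52, 29.45 and 26.69 in KO. The groups overlapped, and the log2 fold change was -0.09 (SE 0.11, 95% interval -0.32 to 0.14, edgeR adjusted p = 0.699). A second identifier with this symbol had 0 counts in all libraries. Ddit3 shares 68 exon bases with Mars on the opposite strand, Hsp90b1 shares 415 with an antisense gene and Eif2ak3 shares 485 with Gm43292. The library kit marks strand, but the strand setting of the counting is not given in the sources used here, so reads over those bases cannot be assigned with certainty.

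Trib3, a pseudokinase that binds AKT and is raised by ATF4 with CHOP (ENSMUSG00000032715, chromosome 2, 152179342 to 152185952, minus strand), measured 3.365, 4.839 and 4.862 in FL and 5.168, 3.949, 3.374 and 4.816 in KO. Of the 10 genes it had the lowest CPM and the widest interval, -0.53 to 0.51 around a log2 fold change of -0.01. Asns, asparagine synthetase (ENSMUSG00000029752, chromosome 6, 7675169 to 7693254, minus strand), measured 76.34, 78.20 and 84.07 in FL and 73.33, 79.77, 75.61 and 74.79 in KO. Its log2 fold change was -0.07 (SE 0.08, 95% interval -0.25 to 0.11, edgeR adjusted p = 0.712). Thus Ddit3, Trib3 and Asns, textbook targets of ATF4, had estimates at or below 0 beside the positive one of Atf4, and the contrast between them was not tested.

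**Figure D3:**
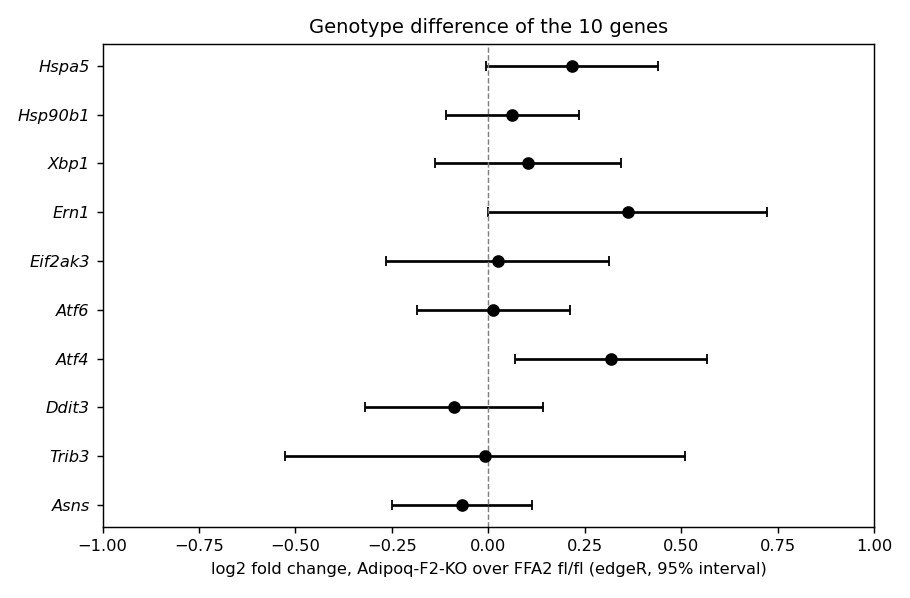
Log2 fold change of each of the 10 genes (points) with its 95% interval (bars), Adipoq-F2-KO over FFA2 fl/fl by edgeR. The interval of Atf4, 0.07 to 0.57, is the one that lies wholly above 0, and that of Trib3 is the widest of the 10.

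The wider pathway was read from 11 lists of genes in the same fit. Of their 187 tested genes, 3 were called by edgeR (1.6%, beside 1.02% of all tested genes), all higher, and 48 had an unadjusted p under 0.05 (25.7%, beside 17.9%). Among UPR sensors and their relatives, 6 of 11 tested genes had a positive and 5 a negative log2 fold change, with a median of 0.01. Creb3, another ER-bound factor, stood at -0.24 (edgeR adjusted p = 0.246), lower in every KO library. The called gene was Creb3l1 (OASIS, an ER-bound factor of the ATF6 type known for procollagen secretion), which measured 37.94, 40.90 and 39.46 in FL and 53.99, 54.71, 56.56 and 61.15 in KO. The groups were well apart, with a log2 fold change of 0.52 (SE 0.09, 1.44-fold, edgeR adjusted p = 0.0378, DESeq2 0.000145, limma voom 0.0290). The call was lost without FL1, FL2, FL3, KO2 or KO3, with adjusted p up to 0.207 by edgeR.

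Of 22 ER chaperones and folding enzymes 0 were called by edgeR and 3 had an unadjusted p under 0.05 (17.9% over all tested genes, which is the background for each such count in the lists), with 8 higher, 14 lower and a median log2 fold change of -0.03. Dnajb9, a BiP cochaperone, stood at 0.36 (edgeR adjusted p = 0.279), whereas Creld2 at -0.41 (adjusted p = 0.155) and Hyou1, the nucleotide exchange factor of BiP, at -0.26 (adjusted p = 0.168) stood on the other side. The estimates of these 3 genes thus lay on both sides of 0, and none was called. Of 18 genes of ER-associated degradation 5 were higher and 13 lower, with a median of -0.12 and 0 called by edgeR (2 at an unadjusted p under 0.05, Os9 at -0.25 and the ligase Syvn1 at -0.22). Their summed level was 1953 to 2012 CPM in FL and 1689 to 1896 in KO, which do not overlap. Sums were also apart in the eIF2, tRNA synthetase and mitochondrial stress lists described below. In all other stress response lists they overlapped, as in the ER chaperones (3199 to 3258 CPM in FL and 3134 to 3397 in KO). How often sums of other gene sets would lie apart was not tested. Of 20 genes of translocation and exit 0 were called by edgeR and 3 had an unadjusted p under 0.05, with a median of -0.02. Sec61g, a subunit of the translocon, stood at 0.55 (edgeR adjusted p = 0.0684, DESeq2 0.0185) and Sec31a, a coat protein of ER exit, at -0.25.

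Of 18 genes that set eIF2 phosphorylation and its effect, 0 were called by edgeR while 8 had an unadjusted p under 0.05 (background 17.9%), 5 of them higher and 3 lower, with a list median of 0.03. Their summed level was 1146 to 1171 CPM in FL and 1223 to 1361 in KO, without overlap and higher in KO. This separation rests on Ppp1r15a, the most abundant gene, since the sums of the remaining genes overlap between the genotypes. Ppp1r15a is also in the list of genes induced by tissue dissociation. Ppp1r15a (GADD34, the phosphatase subunit that ends the response) measured 351 ± 34.0 and 438 ± 36.0 CPM, a log2 fold change of 0.32 (edgeR adjusted p = 0.142, DESeq2 0.0402). Impact, which restrains the amino acid sensor GCN2, stood at 0.44, and Gcn1l1, which activates it, at -0.33. GCN2 itself (Eif2ak4) stood at 0.34 and was higher in every KO library (edgeR adjusted p = 0.178). Eif2b4, a subunit of the exchange factor that phosphorylated eIF2 blocks, stood at -0.44 (edgeR adjusted p = 0.0980).

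Of 20 regulators of the ATF4 and CHOP axis, 12 were higher and 8 lower, 0 were called by edgeR and 8 had an unadjusted p under 0.05 (background 17.9%), with a median of 0.14. Tnfrsf10b, the death receptor that CHOP is known to raise, measured 23.1 ± 3.93 and 43.4 ± 14.0 CPM, a log2 fold change of 0.91 (edgeR adjusted p = 0.0684, DESeq2 0.00134). Bcl2l11 (BIM), a pro-apoptotic BCL2 relative, stood at 0.85 (edgeR adjusted p = 0.0746, DESeq2 0.00697). Atf5 at -0.30 and Eif4ebp1, a brake on translation and an ATF4 target, at -0.31 stood on the other side.

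**Figure D4:**
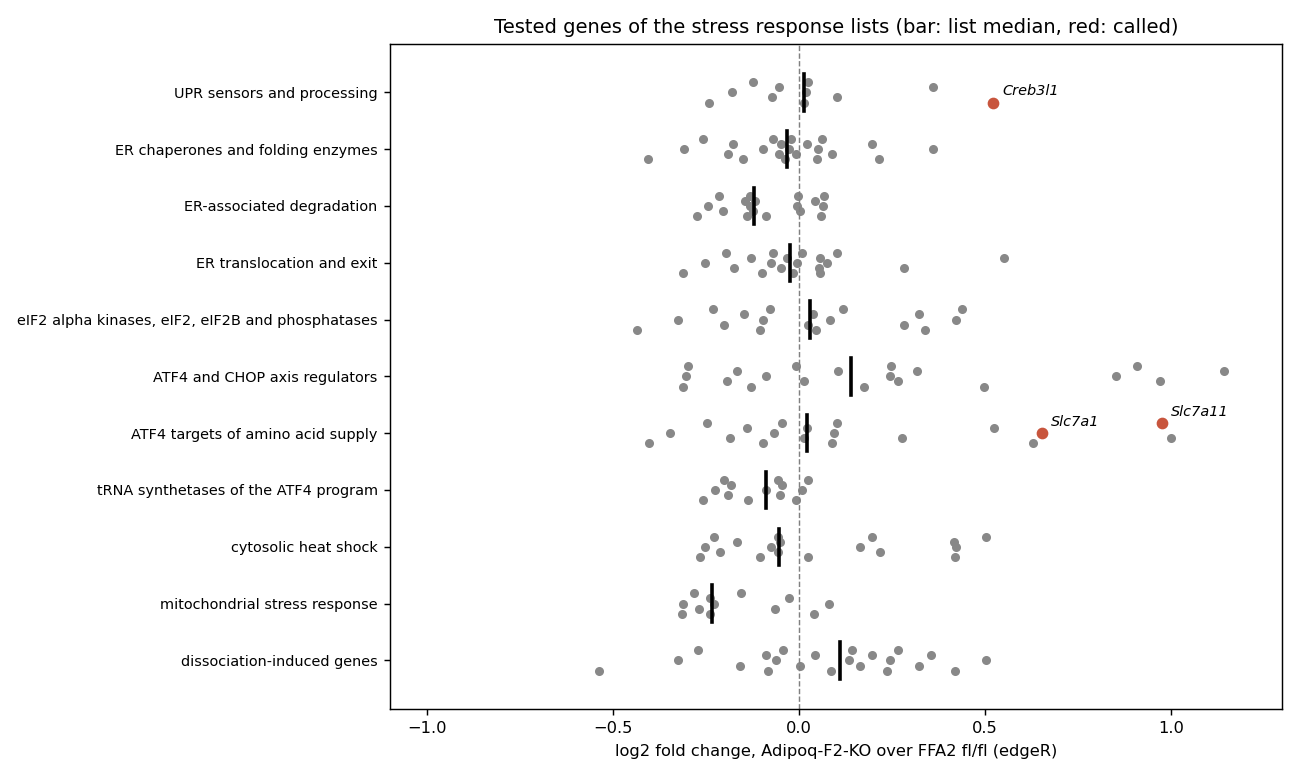
Log2 fold change (Adipoq-F2-KO over FFA2 fl/fl, edgeR) of each tested gene in the 11 stress response lists, with list medians as bars and genes with an adjusted p under 0.05 in red. Medians lie between -0.23 and 0.14, and Creb3l1, Slc7a1 and Slc7a11 are the 3 called genes.

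Of 19 tested ATF4 targets of amino acid supply, 11 had a positive and 8 a negative log2 fold change, with a median of 0.02. By edgeR 2 were called (background 1.02%), both higher, and 5 had an unadjusted p under 0.05 (background 17.9%). DESeq2 (background 4.57%) also called Gpt2, which was lower. Slc7a11, the cystine-glutamate exchanger whose promoter is shown above, measured 5.073, 4.158 and 4.159 in FL and 9.734, 7.351, 9.071 and 8.954 in KO. Every KO library lay above every control, with a log2 fold change of 0.98 (SE 0.18, 1.97-fold, edgeR adjusted p = 0.0383, DESeq2 0.000658, limma voom 0.0360). Slc7a1, the carrier of arginine and lysine, measured 14.93, 18.02 and 17.08 in FL and 24.51, 23.78, 25.22 and 31.34 in KO. These groups were apart too, with a log2 fold change of 0.65 (SE 0.13, 1.57-fold, edgeR adjusted p = 0.0466, DESeq2 0.00181, limma voom 0.0467). Both calls were lost when any single library but KO4 was left out, with adjusted p up to 0.196 for Slc7a11 and 0.242 for Slc7a1 by edgeR.

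Slc38a2, the glutamine and alanine carrier SNAT2, was picked after its values were seen. It measured 137.3, 171.1 and 163.9 in FL and 225.3, 271.6, 257.9 and 505.7 in KO, so KO4 was far above the rest. Its log2 fold change was 1.00 (SE 0.24, edgeR adjusted p = 0.0696, DESeq2 0.0800), and 0.68 without KO4, where the adjusted p by edgeR was 0.0252. Split by role after the values were seen, 7 of 8 transporters were higher with a median of 0.58, and 4 of 11 enzymes were higher with a median of -0.07, with Asns among the enzymes. The lower transporter, Slc1a5 at -0.10 (edgeR adjusted p = 0.687), was the most abundant gene of the list. Slc1a4 at 0.01 and Slc3a2 at 0.10 were near 0. Gpt2, which makes alanine, stood at -0.40 (edgeR adjusted p = 0.0823, DESeq2 0.00784) and Shmt2, of serine breakdown in mitochondria, at -0.25. The contrast of transporters with enzymes was not tested.

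**Figure D5:**
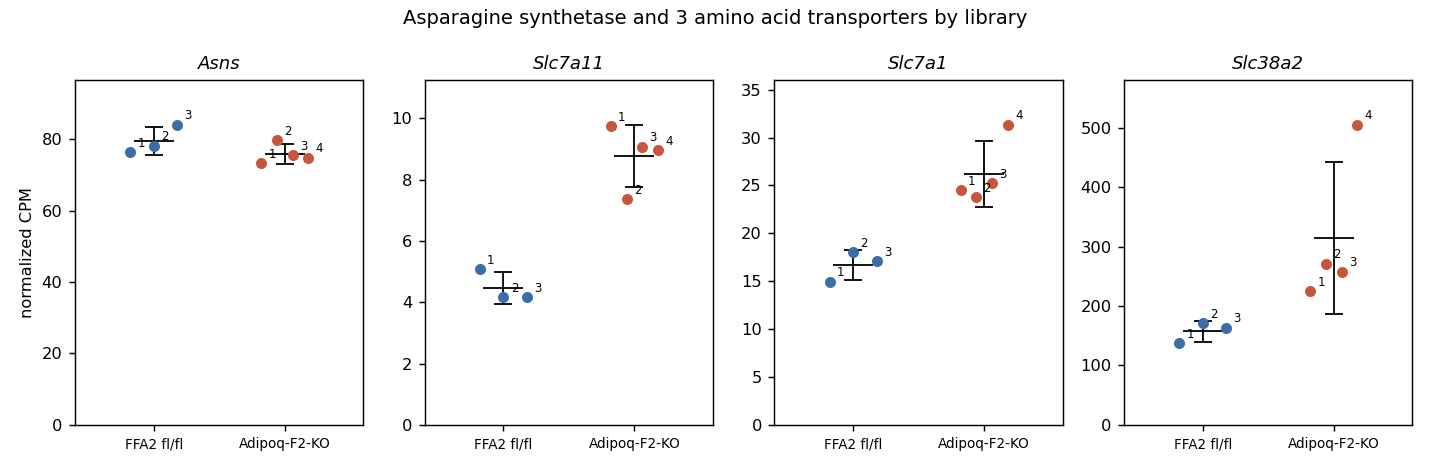
Normalized CPM (linear axis from 0) of Asns and of the transporters Slc7a11, Slc7a1 and Slc38a2 in each library, with mean ± SD (n = 3 and 4). The genotypes overlap in Asns and are apart in the 3 transporters, and KO4 at 505.7 sets the wide SD of Slc38a2.

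Of the 13 tRNA synthetase genes of the ATF4 program, 2 were higher and 11 lower with a median of -0.09, 0 called by edgeR and 3 at an unadjusted p under 0.05, among them Mars at -0.23. Their summed level was 969 to 1014 CPM in FL and 878 to 960 in KO. Of 12 genes of the mitochondrial stress response 2 were higher and 10 lower, 0 were called by edgeR and 6 had an unadjusted p under 0.05 (background 17.9%), all lower, with a median of -0.23. Hspa9, the mitochondrial HSP70, measured 471 ± 30.9 and 398 ± 12.5 CPM (log2 fold change -0.24, edgeR adjusted p = 0.179). The summed level of this list was 1469 to 1559 CPM in FL and 1233 to 1387 in KO, without overlap. Of 18 cytosolic heat shock genes 0 were called by edgeR and 4 had an unadjusted p under 0.05, 2 higher and 2 lower, with a median of -0.05. Bag3 and Dnajb4 stood at 0.42 and were higher in every KO library (edgeR adjusted p = 0.124 and 0.104, DESeq2 0.0259 and 0.0203). Hspb8 at -0.27 and Hsf1 at -0.25 were lower in every KO library (edgeR adjusted p = 0.199 and 0.203, DESeq2 0.144 and 0.240).

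Summed levels of macrophage, endothelial, fibroblast progenitor and neutrophil markers did not overlap between the genotypes, all higher in KO, whereas those of the other marker lists overlapped. Of 12 adipocyte markers 11 were lower, with a summed level of 43684 to 49079 CPM in FL and 33532 to 44482 in KO. Of 14 macrophage markers 12 were higher, 2 of them called by edgeR (Cd68 and Lyz2, beside 1.02% of all tested genes). Their summed level was 475 to 516 CPM in FL and 617 to 703 in KO. All 10 endothelial markers were higher, with sums of 1027 to 1347 and 1427 to 2275. Fibroblast progenitor markers summed to 857 to 1142 CPM in FL and 1220 to 1470 in KO, with 9 of 10 higher. Neutrophil markers summed to 8.22 to 10.3 CPM in FL and 12.3 to 15.1 in KO with Ly6g at 0, and only 3 of the 8 listed passed the filter. Of these the most abundant, Mmp9, stood at a log2 fold change of 0.79 (edgeR adjusted p = 0.0647, DESeq2 0.0118). Csf3r stood at 0.68 (edgeR adjusted p = 0.503) and S100a8 on the other side at -0.18 (edgeR adjusted p = 0.843). T cell markers lay at 2.03 to 7.99 and 2.00 to 4.98, B and plasma cell markers at 18.8 to 41.4 and 22.5 to 41.9, and mesothelial markers at 11.2 to 57.0 and 10.7 to 16.2. Germ cell and epididymal markers reached 135.8 CPM in KO2 (Lcn5 at 0), against at most 5.22 in FL. Of 22 genes induced by tissue dissociation 0 were called by edgeR and 5 had an unadjusted p under 0.05, with a median of 0.11. In bulk libraries fewer cells of a type and less RNA per cell cannot be told apart. The part of these markers and of the mitochondrial share in the values of Atf4, Ern1, Hspa5, Creb3l1 and the transporters was not tested. Nor was their part in the mostly lower lists of ER-associated degradation, tRNA synthetases and the mitochondrial stress response.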

How the data were processed

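Poly(A) RNA of 7 libraries was sequenced in pairs of reads. The submitters' processing notes name Trimmomatic, STAR, featureCounts and DESeq2 without versions, and GRCm38 (mm10). The deposited counts are whole numbers of reads per gene, not normalized by the authors. Their coordinates differ from GRCm38 (2590 of 15632 tested genes overlap their RefSeq GRCm38.p6 position), so gene positions are the table's own, with the build unnamed. Between 85.5% and 88.8% of low counts (1 to 49) were even, so 1 fragment appears to add 2 counts.

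Genes were filtered with filterByExpr, scaled by TMM (factors 0.968 to 1.02) and tested two-sided for genotype with edgeR 4.0.16 in R 4.3.3 (glmQLFit, glmQLFTest), adjusted by Benjamini and Hochberg over all 17039 tested genes. A gene is called at an adjusted p under 0.05. DESeq2 1.42.0 and limma 3.58.1 were alternatives. Normalized CPM are TMM-scaled. The exact permutation p counts absolute differences in means over all 35 assignments of the libraries to groups of 3 and 4, as the written design's smallest p requires. A first version doubled the smaller tail, and this definition was set after its values were seen. With doubling, Hspa5 is at 0.114, Ern1 and Atf4 at 0.0571, which is then the smallest p possible. No pair of libraries of a genotype agreed within counting noise. The labels number the mice within a genotype. The p-values of edgeR, DESeq2 and limma voom set a genotype difference against the spread between these libraries, moderated across genes. The members and lists were chosen with earlier results of these data known. Named are the 10 genes, Ffar2, every called list gene and, per list and direction, the 2 genes with the smallest p (not all are described), with the most abundant gene of each marker list (Cfd, Lyz2, Mmp9, Lck, Sdc1, Cdh5, Col3a1, Krt8 and Prm2). Eif2ak4, Csf3r, S100a8, Slc38a2, Slc1a5, Slc1a4 and Slc3a2 were named beside these. The scripts were tested on simulated counts.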

Additional observations from a re-analysis of the deposited data

Results flagged for a closer look

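A library far from the other 3 of its genotype was looked for in the Adipoq-F2-KO group of 61 named genes, and 6 were found, where chance gives about 1 in 20. Among the 10 stress response genes it was Atf6, with 82.79 normalized CPM in KO4 and 71.4 in the next library. Slc38a2 stood at 505.7 in KO4, with 272 in the next library. Spcs3, a signal peptidase subunit, stood low in KO1 at 13.02, and Eif2b4 stood low in KO2 at 14.34. Mars stood high in KO2 at 46.48, and Prm2, a sperm protamine, high in KO2 at 54.13 normalized CPM, with 5.31 in the next library.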

How the results depend on the processing

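The count of called genes among the 10 stayed at 0 under every alternative run. Of the 150 fold changes recomputed for them, 140 kept their direction and 10 changed sign, all in Eif2ak3, Atf6 and Trib3. With 1 library left out, Eif2ak3 ranged from -0.0471 to 0.108, Atf6 from -0.0459 to 0.0440, Trib3 from -0.166 to 0.0942, Xpot from -0.0068 to 0.0817, Cars from -0.0348 to 0.0551 and Lck from -0.355 to 0.768. With the replicate block, Eif2ak3 was -0.0097, Atf6 -0.0459 and Cars -0.0105, and 224 genes were called, 3 of them in the lists (Slc38a2 in place of Slc7a1, at adjusted p = 0.0678 by edgeR). KO4 has no control of the same number, so this block takes it out of the genotype estimate. The fold changes are thus close to those without KO4 (Ern1 0.1876 with the block and 0.1874 without KO4) and are no separate check. Deviations of equally numbered libraries correlated at 0.0315, -0.0242 and -0.0203, within the -0.0957 to 0.0861 of unequal numbers. No pairing is labelled. These values cannot exclude one, since the deviations were centred within each genotype. Over all genes, 869 were called by DESeq2 and 1403 with a filter of at least 1 count, against 173. In the lists these settings called 12 and 17 genes, against 3. Leaving out 1 library gave 1 to 178 called genes (1 without FL1, 5 without FL3, 11 without KO2, 20 without KO3 and 41 without FL2), and 0 to 4 in the lists (0 without FL1, FL2, FL3, KO2 or KO3). The cause was not tested. Depth did not put any of the 10 genes near the limit of 0 counts, since the lowest value was 3.365 normalized CPM (Trib3 in FL1) beside a limit of 0.197 or less.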
